A study of Mus musculus with 8 samples.

Results

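The genes described here are the collagen genes of the mouse, as read in nuclear RNA of cortical GABAergic neurons. A collagen gene was taken as a protein-coding gene of the GENCODE M21 annotation whose symbol is Col, a number, a, and a number. Of 55450 annotated genes 44 fitted that form, and the 38 with at least 10 counts in at least 3 libraries are described. All 38 were among the 16448 genes tested. The members with the lowest counts were Col4a5, with 6 to 14 per library, and Col18a1, with 6 to 27. Under the limit were Col1a1 (5 to 15 counts) and Col13a1 (4 to 12), then Col17a1 (3 to 9), Col8a2 (0 to 2 in controls and 4 to 7 in mutants), Col4a3 (0 to 7) and Col10a1, which is listed at 0 and whose span lies wholly inside another gene. In this study Cre expressed in GABAergic neurons, which release the inhibitory transmitter GABA, switched on a fluorescent protein of the nucleus in every mouse, and in mutant mice also an allele of Thra that encodes a dominant-negative thyroid hormone receptor. Control mice (Thra+/+, 4 libraries, numbered 1 to 4) carried the Cre and the fluorescent protein without the mutant allele, and mutant mice (Thra+/AMI) carried one mutant copy of Thra. Labelled nuclei were sorted from the frozen cortex of single juvenile mice, and their RNA was amplified and sequenced as 1 library per cortex. The labels give no Cre driver by name and no age beyond juvenile. The title of the series places the comparison in the postnatal maturation of parvalbumin neurons under thyroid hormone.

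Collagens are trimers of chains wound into a triple helix, and each gene gives 1 kind of chain. Fibrillar collagens build the banded fibrils of connective tissue, fibril-associated collagens (FACIT) sit on those fibrils, type IV builds the network of basement membranes, and type VI builds beaded filaments. Transmembrane collagens are held in the plasma membrane and can be shed. In brain, type IV lies around vessels, while some collagens are made by neurons themselves, among them type XIX, which hippocampal interneurons use in forming inhibitory synapses. Thyroid hormone receptors act on DNA next to genes, for which the classical element is a repeat of the half-site AGGTCA.

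The promoters of 4 members are shown because their genes moved furthest in either direction or carry the half-site: Col24a1 and Col11a1, which fell, and Col6a5 and Col5a1, which rose. Each is the 250 bases before the RefSeq start, on the strand of the gene, in build GRCm38.p6. In the first 3, capitals mark AGGTCA or its reverse complement, and in Col5a1 they mark the GC box GGGCGG or its reverse complement. Col24a1 lies on the plus strand (chr3:145292222-145292471), as do Col11a1 (chr3:114030290-114030539) and Col5a1 (chr2:27886175-27886424), while Col6a5 lies on the minus strand (chr9:105960644-105960893).
Col24a1: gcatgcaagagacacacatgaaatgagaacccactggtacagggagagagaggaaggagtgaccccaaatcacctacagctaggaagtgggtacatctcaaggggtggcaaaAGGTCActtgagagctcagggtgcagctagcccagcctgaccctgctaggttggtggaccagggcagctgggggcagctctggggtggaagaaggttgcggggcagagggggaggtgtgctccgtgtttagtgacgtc
Col11a1: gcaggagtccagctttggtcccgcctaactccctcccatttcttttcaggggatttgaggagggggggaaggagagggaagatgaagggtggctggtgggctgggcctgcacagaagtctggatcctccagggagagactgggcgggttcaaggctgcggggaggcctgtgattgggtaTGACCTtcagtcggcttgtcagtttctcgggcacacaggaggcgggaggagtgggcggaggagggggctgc
Col6a5: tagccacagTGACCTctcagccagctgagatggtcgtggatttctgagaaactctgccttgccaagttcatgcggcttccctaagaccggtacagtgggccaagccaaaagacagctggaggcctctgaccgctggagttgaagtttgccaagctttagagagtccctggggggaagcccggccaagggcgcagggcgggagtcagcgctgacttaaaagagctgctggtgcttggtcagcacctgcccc
Col5a1: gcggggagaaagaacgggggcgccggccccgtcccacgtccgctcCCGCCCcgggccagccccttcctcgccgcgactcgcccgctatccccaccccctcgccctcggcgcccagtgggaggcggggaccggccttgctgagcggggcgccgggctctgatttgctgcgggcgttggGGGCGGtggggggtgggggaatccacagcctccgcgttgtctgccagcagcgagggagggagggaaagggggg

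RefSeq windows of 300 bases (250 before the start and 50 after it) were matched by symbol for 31 of the 38 members. The half-site AGGTCA, searched on both strands, was in a window of 8 of these 31 genes (25.8%) and in 16.3% of all 32851 windows. Here and below, shares of members are by gene and shares of all windows by window. Of the genes with a window, it was in 4 of the 7 that fell (Col24a1, Col11a1, Col20a1 and Col4a4) and in 1 of the 6 that rose (Col6a5). It was also in 3 of the 18 uncalled ones (Col9a1, Col7a1 and Col23a1). In Col24a1 the half-site begins 138 bases before the start, as printed. In Col11a1 its reverse complement begins 71 bases before the start, and in Col6a5 241 bases before it. The direct repeat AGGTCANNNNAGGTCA was in a window of 0 of the 31 genes and in 5 of all windows (0.0152%). Each such repeat holds the half-site 2 times, whereas a match of the GC box GGGCGG cannot overlap a match of the half-site. The GC box was in a window of 21 of the 31 genes (67.7%) and in 35.7% of all windows. It was in a window of 4 of the 7 genes that fell and of 5 of the 6 that rose, and 2 times in the Col5a1 promoter shown. The median GC content of all windows was 52.7%, and the 4 promoters shown had 58.0% to 76.4%. The share with a GC box was not compared between windows of like GC content. Col4a1 and Col4a2, both counted, have windows that share 78 bases. These matches describe letters in a window and not binding.

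Before the results, the libraries were checked against their labels. The tables of mutants 7 and 10 held the same count in each of 55220 genes compared (0 genes differed, which is less than sampling noise). Which of these mice gave the counts is not known. The tables hold the same data and were taken as 1 sample, called mutant 7. The comparison is thus between 4 controls and 3 mutants (6, 7 and 8), with total counts of 10747169 to 13804734 per library. Thra, the mutated gene, was at 108, 126, 119 and 105.5 CPM (counts scaled to the library total and by TMM factors) in controls 1 to 4 and at 77.6, 96.3 and 88.6 CPM in mutants 6, 7 and 8. The groups did not overlap, but the log2 fold change of -0.39 (SE 0.11) gave an adjusted p of 0.0543 in edgeR's quasi-likelihood test with Benjamini-Hochberg adjustment over all genes tested. The adjusted p was 0.0275 without control 1, 0.0149 without control 4, 0.0284 with the DESeq2 Wald test, 0.00393 with limma-voom and 0.0102 with an offset for genomic length. In the other alternative fits Thra did not pass, and the adjusted p ran up to 0.239. The sum of the GABAergic markers was 5127 to 6367 CPM in controls and 5675 to 6875 CPM in mutants, against 80.4 to 148 CPM and 85.9 to 139.4 CPM for glutamatergic markers. Much of the GABAergic sum was Erbb4, a gene of 1076 kb, at 2460 to 4082 CPM in controls and 3405 to 4343 CPM in mutants. Gad1 was at 520 to 660 CPM in controls and 586 to 664 CPM in mutants. Control 4 and mutant 8 had 4 and 3 reads of 4 Y-linked genes, against 5094 to 6644 in the other libraries, and are called the libraries that lack Y-linked reads. The ratio of control 1 to control 4 fell with genomic length over all tested genes (Spearman's rho -0.61) and more weakly over the 38 members (rho -0.30), whose median genomic length was 117 kb against 23.8 kb for all.

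Collagen genes changed in both directions. Of the 38 members, 13 (34.2%) passed at an adjusted p under 0.05, where 9.42% of all tested genes did. Of these, 7 fell (background 4.78%) and 6 rose (background 4.63%). The largest fall was that of Col24a1, a fibrillar collagen, which was 11.8 times lower in mutants, and the largest rise that of Col5a1, another fibrillar collagen, which was 3.92 times higher. An absolute log2 fold change over 1 accompanied 10 of the 13 calls, 5 in each direction, where the background is 3.9%. The CPM of the groups did not overlap in 21 of the 38 genes, where the background is 22.0%. The median log2 fold change was 0.29 against -0.01 for all tested genes, and the median absolute log2 fold change 0.57 against 0.21. By sign, 24 members were positive and 14 negative, against 7888 and 8560 of all 16448 tested genes.

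The count of falls was 4 without control 3, without mutant 7 or without mutant 8, and the count of rises was 10 without control 4. In each of 13 alternative fits, the copied table of mutant 10 not counted, 9 of the 13 called genes were called, and 4 lost the call in at least 1 (Col20a1, Col16a1, Col4a4 and Col4a1), while 0 changed sign. In nuclei sorted together, fewer nuclei of a type and less RNA per nucleus cannot be told apart. Each library came from 1 animal, so the p-values measure the spread between single animals, and the reads carry no molecular identifiers, so counting error is a lower limit of the error of a value.

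**Figure D1:**
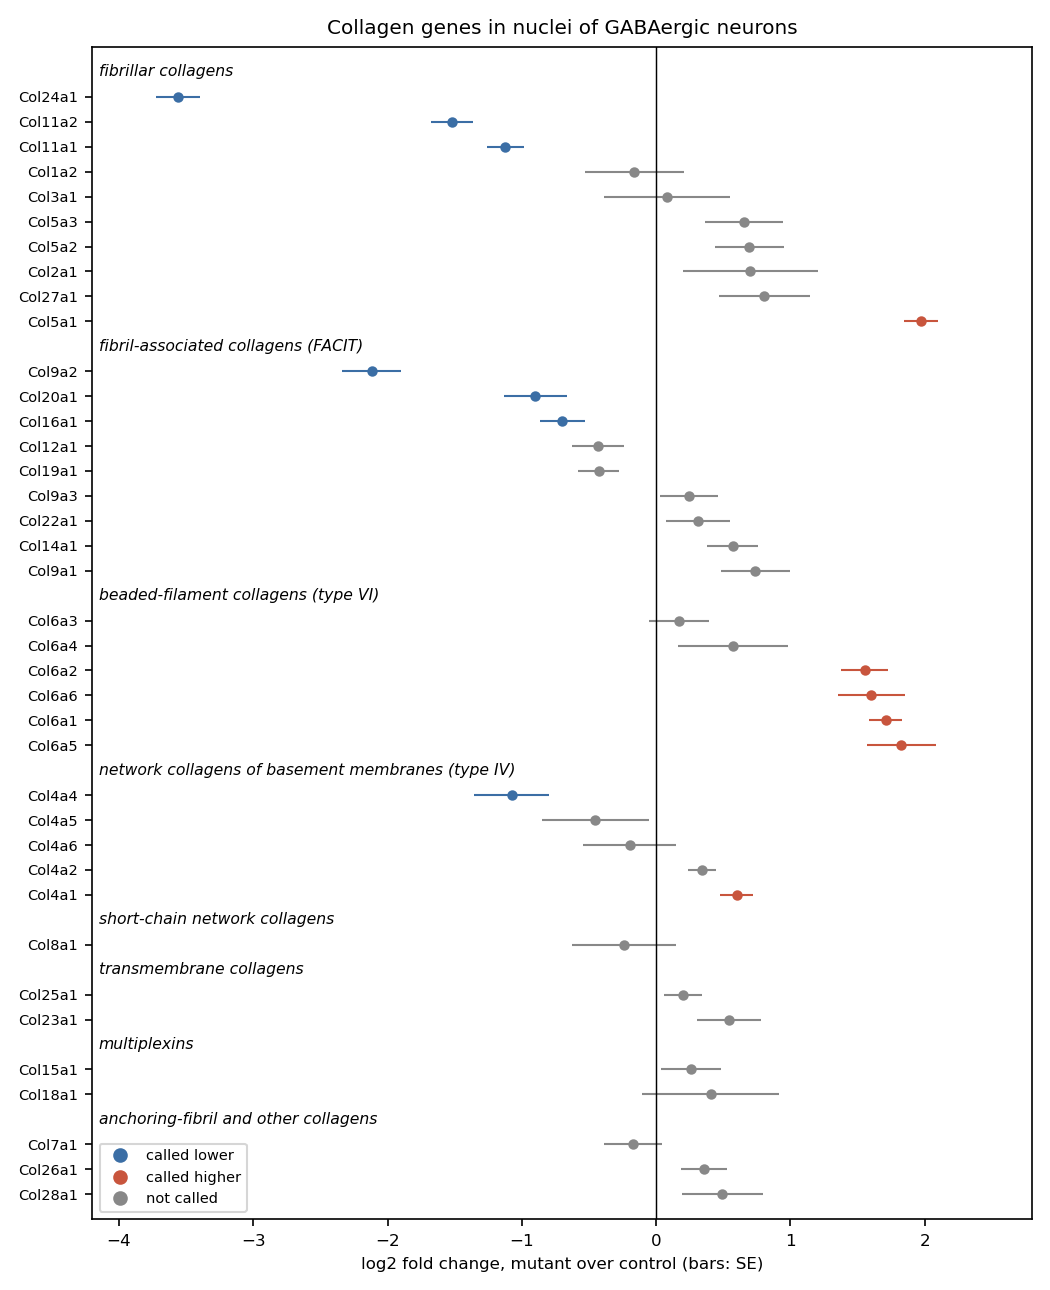
Log2 fold change of mutant over control (x axis, points, with SE as bars) for each of the 38 collagen genes (y axis), set out by structural group, from edgeR's quasi-likelihood fit with 4 controls and 3 mutants. Blue marks the 7 genes that fell, red the 6 that rose and grey the 25 that did not pass, and the points run from -3.56 (Col24a1) to 1.97 (Col5a1).

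Fibrillar collagens were split: of 10 members 3 fell and 1 rose. Col24a1 (ENSMUSG00000028197, GRCm38 chromosome 3, 145292472 to 145552011), a fibrillar collagen known from developing bone and eye, was at 102, 87.9, 78.2 and 69.0 CPM in controls 1 to 4 and at 7.04, 7.53 and 6.88 CPM in mutants 6, 7 and 8. The lowest control stood far above the highest mutant, and the mutants lay close together. Controls averaged 84.4 ± 14.2 CPM (SD, n = 4) and mutants 7.15 ± 0.336 CPM (SD, n = 3), and the log2 fold change was -3.56 (SE 0.16, adjusted p 3.6e-07). These values rest on 856 to 1290 counts per control library and 82 to 90 per mutant library.

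Col11a1 and Col11a2 encode chains of type XI, a collagen of thin fibrils best known from cartilage and the inner ear. Col11a1 (chromosome 3, 114030540 to 114220718) was at 96.6, 102, 84.2 and 76.9 CPM in the controls and at 40.8, 47.0 and 36.2 CPM in the mutants. Col11a2 (chromosome 17, 34039437 to 34066685) was at 38.5, 37.0, 44.0 and 29.2 CPM in the controls and at 13.5, 12.9 and 12.4 CPM in the mutants. In both genes every mutant was below every control. The log2 fold change was -1.12 for Col11a1 (SE 0.13, adjusted p 0.000293). For Col11a2 it was -1.52 (SE 0.16, adjusted p 0.000111).

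Col5a1 encodes the main chain of type V, which sets the diameter of fibrils in connective tissue. It was at 23.6, 23.8, 22.1 and 21.8 CPM in the controls and at 95.1, 73.1 and 100.2 CPM in the mutants (chromosome 2, 27886425 to 28039514). The controls lay within a narrow range, and every mutant was above them. The log2 fold change was 1.97 (SE 0.13, adjusted p 3.17e-06), from means of 22.8 ± 1.02 CPM (SD, n = 4) and 89.4 ± 14.4 CPM (SD, n = 3).

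The partner chains of type V had smaller differences. Col5a2 was at 9.20, 5.29, 6.24 and 10.0 CPM in the controls and at 16.5, 10.3 and 10.4 CPM in the mutants, and did not pass (log2 fold change 0.69, SE 0.26, adjusted p 0.124). Its groups did not overlap, but control 4 and mutant 7 were nearly level. Its adjusted p was 0.0296 without control 4, 0.0477 without both libraries that lack Y-linked reads and 0.00739 with limma-voom. In the other alternative fits Col5a2 did not pass, at adjusted p-values up to 0.482. Col27a1, the fibrillar collagen nearest in kind to Col24a1, was at 3.81, 5.44, 5.94 and 3.79 CPM in the controls and at 8.29, 3.86 and 12.7 CPM in the mutants. Mutant 7 lay among the controls, and the gene did not pass (log2 fold change 0.81, SE 0.34, adjusted p 0.177), whereas without mutant 7 the adjusted p was 0.0451. The other alternative fits left Col27a1 uncalled, at adjusted p-values up to 0.703.

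The other 4 fibrillar members were low, at means of 1.38 to 2.95 CPM in mutants, and none passed. Col5a3 had a log2 fold change of 0.66 (adjusted p 0.202) and Col2a1, the cartilage collagen, one of 0.70 (adjusted p 0.466). The chains of the common fibrils of connective tissue, Col1a2 (-0.16) and Col3a1 (0.08), changed sign in some of the alternative fits. Col1a2 had 11 to 23 counts per library and Col3a1 8 to 34. 

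**Figure D2:**
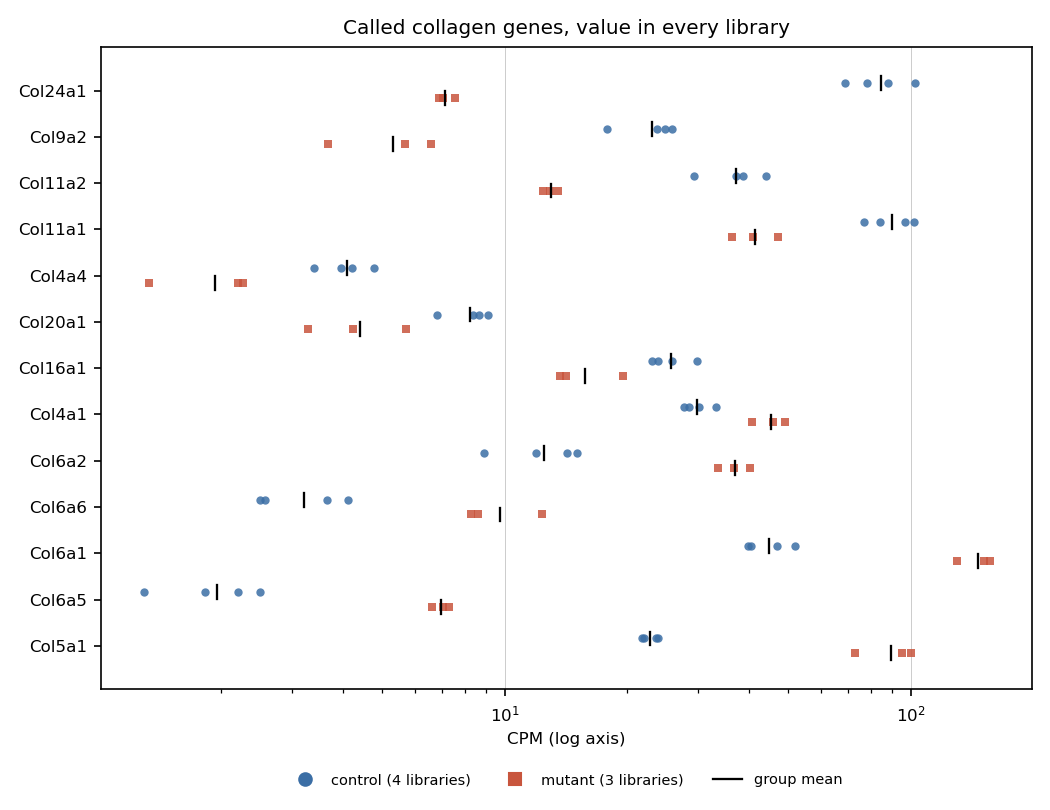
CPM on a log axis (x) in every library for the 13 collagen genes that passed (y), with circles for 4 controls, squares for 3 mutants and a line at each group's mean. In each gene the groups do not overlap, with Col24a1 at 69.0 to 102 CPM in controls and 6.88 to 7.53 CPM in mutants, and Col5a1 at 21.8 to 23.8 CPM and 73.1 to 100.2 CPM.

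Of 9 fibril-associated collagens 3 fell and 0 rose. Col9a2, a chain of type IX, which decorates type II fibrils, was at 25.8, 24.9, 23.8 and 17.9 CPM in the controls and at 3.68, 5.69 and 6.57 CPM in the mutants (chromosome 4, 121039385 to 121055322). Every mutant was far below every control, and the log2 fold change was -2.12 (SE 0.22, adjusted p 0.000111), or 4.34 times. The companion chains of type IX did not fall with it. Col9a3 was at 19.4, 16.8, 17.5 and 9.68 CPM in the controls and at 15.6, 21.4 and 19.4 CPM in the mutants, which overlapped (log2 fold change 0.24, SE 0.22, adjusted p 0.578). Col9a1 was at 3.25, 3.02, 2.28 and 2.34 CPM in the controls and at 4.69, 5.32 and 3.68 CPM in the mutants. Its groups did not overlap, and it did not pass (log2 fold change 0.74, SE 0.25, adjusted p 0.0991, or 0.0379 with limma-voom and up to 0.329 in other fits).

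Col16a1, which associates with fibrils and with integrins, was at 29.8, 23.8, 25.9 and 23.1 CPM in the controls and at 19.6, 14.1 and 13.7 CPM in the mutants. Col20a1, a collagen with fibronectin-like repeats, was at 9.12, 6.80, 8.37 and 8.63 CPM in the controls and at 5.71, 4.22 and 3.28 CPM in the mutants. In both genes mutant 6 was the highest mutant and still below the lowest control. Col16a1 fell (log2 fold change -0.70, SE 0.17, adjusted p 0.0204), a call that did not pass without control 3 (adjusted p 0.060), mutant 7 (0.120) or mutant 8 (0.123). Col20a1 fell (log2 fold change -0.90, SE 0.23, adjusted p 0.0308), a call that did not pass without control 3 (adjusted p 0.0819), mutant 7 (0.131) or mutant 8 (0.158), nor with both libraries that lack Y-linked reads left out (0.139).

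Col19a1, the type XIX chain, had the highest CPM of all members, at 523, 717, 630 and 659 CPM in the controls and at 500.2, 493 and 416 CPM in the mutants. Control 1, the lowest control, was close to mutants 6 and 7, and the groups did not overlap. The gene did not pass (log2 fold change -0.43, SE 0.16, adjusted p 0.115), but the adjusted p was 0.0231 without control 1, 0.0305 with the DESeq2 Wald test, 0.00451 with limma-voom and 0.0108 with an offset for genomic length. The other alternative fits left Col19a1 uncalled, at adjusted p-values up to 0.395. Col14a1, which binds the surface of fibrils, was at 14.8, 25.8, 22.7 and 23.6 CPM in the controls and at 37.9, 32.9 and 26.2 CPM in the mutants. Mutant 8 was close to control 2, and the gene did not pass (log2 fold change 0.57, SE 0.19, adjusted p 0.0874), whereas it passed in 5 alternatives, at an adjusted p of 0.0376 without control 4, 0.0368 without both libraries that lack Y-linked reads, 0.0349 without a count filter, 0.0483 with limma-voom and 0.0149 with the length offset. In the rest Col14a1 did not pass, at adjusted p-values up to 0.329. Col12a1 (-0.43, adjusted p 0.208, or 0.0381 with limma-voom and up to 0.477 in other fits) and Col22a1 (0.31, adjusted p 0.502), the other members, did not pass either.

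Type VI was the group with the most rises: 4 of its 6 genes rose and 0 fell, and all 6 log2 fold changes were positive. Col6a1, a chain found in every type VI trimer, was at 47.0, 40.4, 51.8 and 39.8 CPM in the controls and at 152, 130.4 and 156 CPM in the mutants (chromosome 10, 76708792 to 76726168). Col6a2, its constant partner, was at 12, 14.2, 15.1 and 8.87 CPM in the controls and at 40.3, 33.5 and 36.8 CPM in the mutants (chromosome 10, 76595762 to 76623630). Every mutant was above every control in both genes. Col6a1 rose 3.27 times (log2 fold change 1.71, SE 0.12, adjusted p 7.52e-06) and Col6a2 2.94 times (log2 fold change 1.55, SE 0.17, adjusted p 0.00019).

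The place of the last chain in a type VI trimer can be taken by the product of Col6a3, Col6a4, Col6a5 or Col6a6. Col6a5 was at 1.82, 2.49, 2.21 and 1.29 CPM in the controls and at 7.28, 6.61 and 7.04 CPM in the mutants (chromosome 9, 105856078 to 105960643). Col6a6 was at 3.65, 2.57, 4.11 and 2.5 CPM in the controls and at 12.4, 8.26 and 8.6 CPM in the mutants (chromosome 9, 105687809 to 105828160). Neither gene's groups overlapped, on 16 to 33 counts per control and 72 to 93 per mutant for Col6a5, and 31 to 54 and 90 to 158 for Col6a6. Col6a5 rose (log2 fold change 1.83, SE 0.26, adjusted p 0.000873), as did Col6a6 (1.60, SE 0.25, adjusted p 0.00171). Col6a3, the usual last chain elsewhere in the body, was at 3.32 to 4.68 CPM in controls and 4.22 to 5.05 CPM in mutants and did not pass (0.17, SE 0.22, adjusted p 0.731). Col6a4 was at 1.19 to 3.25 CPM and 1.95 to 6.15 CPM and did not pass (0.57, SE 0.41, adjusted p 0.466).

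Of 5 type IV genes 1 rose and 1 fell. Col4a1, which with Col4a2 forms the type IV trimer of nearly all basement membranes, was at 28.5, 27.6, 30.1 and 33.2 CPM in the controls and at 49.1, 40.8 and 45.7 CPM in the mutants. Col4a2 was at 112, 101, 98.7 and 112 CPM in the controls and at 146, 125 and 134 CPM in the mutants. In both genes the mutants lay above the controls without overlap. Col4a1 rose (log2 fold change 0.60, SE 0.12, adjusted p 0.00839), a call that did not pass without mutant 6 (adjusted p 0.0593). Col4a2 did not pass (log2 fold change 0.34, SE 0.11, adjusted p 0.0656), but its adjusted p was 0.0313 without control 1, 0.0251 without control 4, 0.0342 with DESeq2 and 0.00506 with limma-voom. In the other alternative fits Col4a2 did not pass, at adjusted p-values up to 0.259.

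Col4a4, a chain of the kidney and cochlea type of basement membrane, was at 4.20, 3.40, 3.96 and 4.76 CPM in the controls and at 1.33, 2.20 and 2.27 CPM in the mutants. Every mutant was below every control, on 45 to 59 counts per control and 17 to 29 per mutant. The log2 fold change was -1.08 (SE 0.28), a fall that passed (adjusted p 0.032). It did not pass without control 3 (adjusted p 0.0737), mutant 6 (0.143), mutant 7 (0.0843) or mutant 8 (0.0758), nor without both libraries that lack Y-linked reads (0.0761). Its partner Col4a3, below the count rule, starts 71 bases from it on the opposite strand. Col4a5 (-0.45, adjusted p 0.57) and Col4a6 (-0.20, adjusted p 0.809), of the X chromosome, did not pass.

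None of the 8 members outside these groups passed. Col25a1, a transmembrane collagen that developing muscle needs for its innervation, was at 132, 175, 148 and 195 CPM in the controls and at 211, 174 and 175 CPM in the mutants, which overlapped (log2 fold change 0.20, SE 0.14, adjusted p 0.474). Col26a1, a short collagen of little known role, was at 64.8, 85.8, 86.0 and 113 CPM in the controls and at 131, 94.1 and 111 CPM in the mutants. Its groups overlapped through control 4, and it did not pass (log2 fold change 0.36, SE 0.17, adjusted p 0.237), whereas the adjusted p was 0.0185 without control 4, 0.0429 with limma-voom and 0.0303 with the length offset. The other alternative fits left Col26a1 uncalled, at adjusted p-values up to 0.613. The remaining 6, Col7a1, Col8a1, Col15a1, Col18a1, Col23a1 and Col28a1, were at means of 1.03 to 6.91 CPM in controls, with log2 fold changes that ran from -0.24 to 0.54 at adjusted p-values of 0.201 to 0.785. With limma-voom Col23a1 passed (adjusted p 0.0282), and in the other alternative fits it did not (adjusted p up to 0.427).

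Summed over all 38 members, controls were at 1486 ± 95.6 CPM (SD, n = 4) and mutants at 1465 ± 98.5 CPM (SD, n = 3), and the groups overlapped. Col19a1 alone took 38.4% to 45.2% of this sum in controls and 29.6% to 34.9% in mutants. The sum of the other 37 was 839 to 870.5 CPM in controls and 920 to 1079 CPM in mutants, without overlap. The type VI genes together were at 59.6 to 80.5 CPM in controls and 190 to 220 CPM in mutants. Fibrillar genes together were at 218 to 280.5 CPM in controls and 161 to 191 CPM in mutants, but without Col24a1 the other 9 overlapped, at 149 to 178 CPM and 154 to 184 CPM. The sums of fibril-associated genes, mostly Col19a1, did not overlap either, at 644 to 838 CPM and 503 to 604 CPM, while without Col19a1 the other 8 overlapped, at 99.8 to 121 CPM and 87.3 to 104 CPM. Those of type IV genes were 135 to 155 CPM in controls and 171 to 198 CPM in mutants. Most of the type IV sum was Col4a2, which did not pass, at means of 106 CPM in controls and 135 CPM in mutants.

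**Figure D3:**
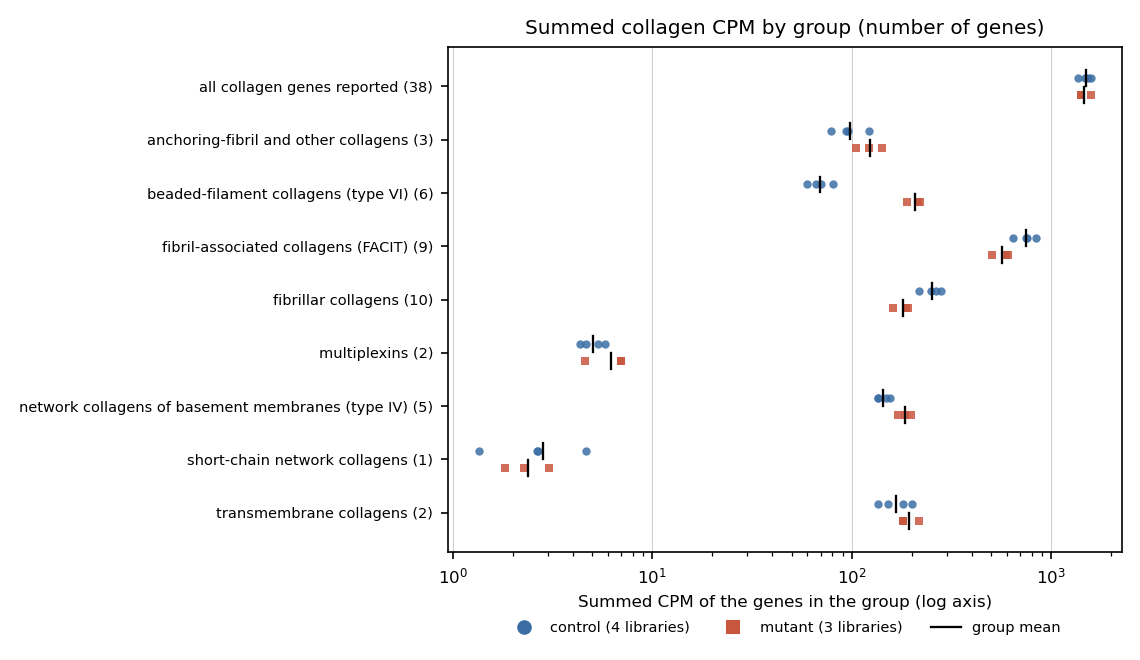
Summed CPM on a log axis (x) of the collagen genes in each structural group (y, number of genes in brackets), with circles for 4 controls, squares for 3 mutants and a line at each group's mean. The sum over all 38 overlaps at about the same mean (1486 and 1465 CPM), while type VI is higher in mutants (190 to 220 against 59.6 to 80.5 CPM) and the fibrillar sum, which overlaps without Col24a1, is lower (161 to 191 against 218 to 280.5 CPM).

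Levels were compared between genes as CPM per kilobase of the span that a gene shares with no other gene, since the counts hold intronic reads. On this scale Col6a1 had the highest level in controls, at 2.57 ± 0.328 CPM per kilobase (SD, n = 4), followed by Col19a1 (1.94 ± 0.25), Col9a2 (1.45 ± 0.222), Col11a2 (1.36 ± 0.224) and Col4a2 (0.902 ± 0.0612). Col6a1 was above Col19a1 without overlap (2.29 to 2.98 against 1.61 to 2.20), and Col19a1, Col9a2 and Col11a2 did not each lie beyond the range of the next (1.12 to 1.62 for Col9a2 and 1.07 to 1.61 for Col11a2). In mutants Col6a1 was again first at 8.42 ± 0.802 CPM per kilobase (SD, n = 3), Col19a1 (1.44 ± 0.144) and Col6a2 (1.32 ± 0.122) followed with overlapping ranges, and Col4a2 (1.14 ± 0.0898) came next. In the same order Col9a2 went from rank 3 to rank 11, Col24a1 from 12 to 31, Col6a2 from 10 to 3 and Col5a1 from 16 to 7. Per exonic kilobase, which leaves the introns out of the length, Col19a1 was first and Col6a1 at rank 6 in controls. The orders on both scales were correlated in controls (Spearman's rho 0.81 over 38 genes of the same libraries), so the place of a single gene depends on the length used.

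The proportion of partner chains was read as the ratio of their levels in the same library, again per kilobase of unshared span. These ratios are descriptions over the 7 libraries, with no test. Col6a1 over Col6a2 was 6.29, 4.56, 5.51 and 7.20 in the controls and 6.04, 6.24 and 6.83 in the mutants, and overlapped fully. Col6a5 over Col6a3 was 0.284, 0.546, 0.384 and 0.216 in the controls and 1.25, 0.954 and 1.09 in the mutants. Col6a6 over Col6a3 was 0.313 to 0.535 in controls and 0.892 to 1.60 in mutants. Neither ratio's groups overlapped. Which of these chains is the higher depends on the length used: per exonic kilobase Col6a5 over Col6a3 was 0.377 to 0.953 in controls and 1.66 to 2.19 in mutants, and Col6a6 over Col6a3 0.749 to 1.28 and 2.14 to 3.82.

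In the chains of types V and XI the order turned over. Col11a1 over Col5a1 was 3.18, 3.33, 2.96 and 2.74 in the controls and 0.333, 0.499 and 0.280 in the mutants. Col11a2 over Col5a1 was 7.25 to 10.8 in controls and 0.672 to 0.958 in mutants. Within type XI, Col11a1 over Col11a2 was 0.274 to 0.395 in controls, against 0.417 to 0.520 in mutants, a smaller shift without overlap. Col24a1 over Col27a1 was 6.21 to 12.7 in controls and 0.256 to 0.920 in mutants, and Col9a2 over Col9a3 was 2.01 to 2.81 and 0.356 to 0.514. Except within type XI, every control was above 1 and every mutant below it in these pairs. Per exonic kilobase the same held for Col11a1 and Col11a2 over Col5a1 and for Col9a2 over Col9a3, but not for Col24a1 over Col27a1, which was 22.5 to 45.9 in controls and 0.928 to 3.34 in mutants. Col9a2 over Col9a1 also fell, from 36.1 to 49.0 in controls to 3.69 to 8.42 in mutants, but stayed above 1 in every library. The pairs were chosen after values had been seen. Col5a1 over its partner Col5a2 was 1.80 to 3.72 in controls and 4.75 to 7.95 in mutants. For Col4a2 over Col4a1 the ratios were 3.00 to 3.61 (controls) and 2.67 to 2.8 (mutants).

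**Figure D4:**
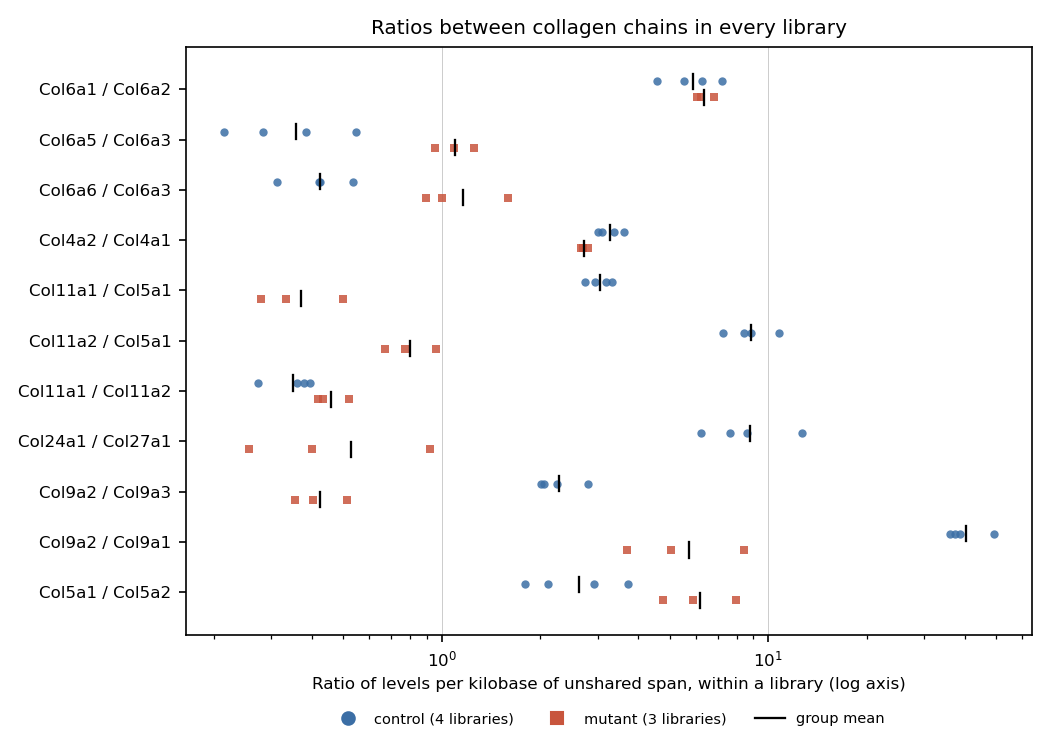
Ratio of the levels of a pair of collagen chains in the same library, per kilobase of unshared span, on a log axis (x) for 11 pairs (y), with circles for 4 controls, squares for 3 mutants and a line at each group's mean. Col6a1 over Col6a2 overlaps between the groups (4.56 to 7.20 and 6.04 to 6.83), while Col11a1 over Col5a1 is 2.74 to 3.33 in controls and 0.280 to 0.499 in mutants.

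Some members lie next to each other in the genome. Col6a2 and Col6a1, which both rose, lie on the same strand of chromosome 10 with 85.2 kb between them. Col6a6, Col6a5 and Col6a4 lie in a row on the minus strand of chromosome 9, with gaps of 27.9 kb and 28.8 kb, and the first 2 rose while Col6a4 did not pass. Col4a1 and Col4a2 lie head to head on chromosome 8 with an overlap of 22 bases, so their promoter windows share 78 bases. Their log2 fold changes were 0.60 and 0.34. Col9a1 and Col19a1 lie tail to tail, 9.2 kb apart on chromosome 1, and had log2 fold changes of 0.74 and -0.43, neither of which passed. Over the 38 members the log2 fold change was not ordered by genomic length (Spearman's rho -0.07, a description over genes of the same libraries).

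Genes that make, process or bind collagen were called in 8 of 39 cases (20.5%, background 9.42%), 4 lower and 4 higher. Of 19 enzymes and chaperones of the endoplasmic reticulum 3 rose and 1 fell. Plod2, which hydroxylates lysines at the chain ends, was at 19.0, 22.0, 20.9 and 18.9 CPM in the controls and at 35.8, 41.8 and 29.2 CPM in the mutants (log2 fold change 0.82, SE 0.15, adjusted p 0.00399). Colgalt2, which adds galactose to hydroxylysine, rose from 4.82 ± 1.21 to 9.74 ± 1.67 CPM (log2 fold change 1.01, adjusted p 0.0174), and P3h4, a partner of the lysyl hydroxylases, from 6.34 ± 0.876 to 10.8 ± 1.3 CPM (0.77, adjusted p 0.0244). P3h2, a prolyl 3-hydroxylase, fell from 56.0 ± 16 to 30.7 ± 3.67 CPM (-0.87, adjusted p 0.0166). In these 4 genes the groups did not overlap.

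Of 9 tested enzymes that act outside the cell, 2 fell and 0 rose (22.2% called, background 9.42%). Pcolce2, which speeds removal of the C-terminal propeptide, fell from 14.5 ± 1.27 to 8.77 ± 1.93 CPM (-0.73, adjusted p 0.0281), and Adamts3, which removes the N-terminal propeptide, from 31.9 ± 7.19 to 20.3 ± 2.91 CPM (-0.66, adjusted p 0.0425). Of 11 tested receptors 1 rose and 1 fell (18.2% called, background 9.42%). Adgrg1, a receptor for type III collagen in the developing cortex, was at 12.2, 11, 14.8 and 11 CPM in the controls and at 27.9, 21.8 and 26.5 CPM in the mutants (log2 fold change 1.05, SE 0.16, adjusted p 0.0014). Ddr2, a receptor kinase for fibrillar collagens, fell from 9.99 ± 2.48 to 5.56 ± 0.639 CPM (-0.84, adjusted p 0.0397). Plod2 and Adgrg1 were called in each alternative fit. Without mutant 7 the other 6 did not pass, with adjusted p-values from 0.0565 (P3h4) to 0.153 (Ddr2), and the same held for all but Colgalt2 without mutant 8 and all but Pcolce2 without mutant 6. Without control 2, Colgalt2, Pcolce2, Adamts3 and Ddr2 did not pass, and without control 3, P3h4, Pcolce2, Adamts3 and Ddr2. Without both libraries that lack Y-linked reads, P3h4 (adjusted p 0.123), Pcolce2 (0.130) and Adamts3 (0.137) did not pass.

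Cells that make collagen elsewhere in the brain were followed through their markers. The sum of 9 endothelial markers was 57.5 to 128.9 CPM in controls and 54.3 to 83.0 CPM in mutants. Of their log2 fold changes 9 of 9 were negative, as were 8560 of all 16448 tested genes, and 0 were called. The sum of 9 mural markers was 40.6 to 105 CPM and 42.0 to 62.2 CPM. Of the 8 tested 3 had a positive log2 fold change (Pdgfrb 0.47, Myh11 0.65 and Notch3 0.54), 5 a negative one and 0 were called. The groups did not overlap for 2 of these 8, Pdgfrb and Myh11, both higher in mutants, where the background is 22.0% of all tested genes. The sum of 9 fibroblast markers was 6.5 to 9.5 CPM and 6.9 to 9.2 CPM, in which Dcn was at 0.685 to 1.28 CPM and 0.391 to 1.02 CPM, Lum was at or under 0.381 CPM and Ogn and Igf2 were listed at 0. These 2 and 3 further markers, Dlx1, Gfap and P2ry12, have almost no base outside the spans of other genes, from which the tables hold no counts, so their 0 says nothing of the cells.

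Some markers of the GABAergic classes differed between the groups, in lists chosen after values had been seen. Of all tested genes 9.42% were called, 4.78% lower and 4.63% higher. Of 8 markers of parvalbumin neurons 4 fell, among them Pvalb itself (41.0 ± 5.91 to 1.81 ± 0.682 CPM), and their sum was 2015 to 3082 CPM in controls and 2190 to 2468 CPM in mutants. Of 8 somatostatin markers 3 rose and 1 fell, and their sum was 919 to 1089 CPM and 1469 to 1784 CPM, without overlap. Of 8 VIP markers 3 rose and 2 fell, with sums of 378 to 574.5 CPM and 552 to 577 CPM, and of 7 LAMP5 markers 1 rose and 2 fell, with sums of 1140 to 1275 CPM and 1140 to 1435 CPM. The part that the makeup of the sorted nuclei has in the collagen values was not tested.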

How the data were processed

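Nuclear RNA of sorted GABAergic nuclei was read as cDNA made with SMART-Seq v4 and libraries made with Nextera XT, per the labels' protocols. The authors deposited counts of reads per gene, whole numbers that differ in total between libraries. The submitters' processing notes name Bowtie2 2.5.3 and the builds GRCm38 and mm10 without a role, and the counting program and its settings were not given in the sources used here. All 7 tables keyed by gene identifier match GENCODE M21 (GRCm38), from which symbols and coordinates were taken. The table of mutant 10 is keyed by symbol, repeats that of mutant 7 and was left out. In the deposited counts all 1351 protein-coding genes whose span lies wholly within other genes are at 0, while 102 of 111 genes with 1000 or more unshared bases, none of them exonic, have counts, so the tables hold intronic reads and no reads from shared spans.

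Counts were fitted in R 4.3.3 with edgeR 4.0.16 (filterByExpr by group with least count 10 and least total 15, TMM, glmQLFit robust, glmQLFTest, group as the only term, two-sided). P-values were Benjamini-Hochberg adjusted over all 16448 tested genes, with calls made below 0.05. The members and gene lists were chosen with earlier results of these data known. Values in every library are given for called members, and for uncalled ones with an adjusted p under 0.2 or among the 6 with the highest level per exonic kilobase. Called genes of the collagen-making, processing and receptor lists are also named. The marker lists of parvalbumin, somatostatin, VIP and LAMP5 neurons, the genes of the ratios and the promoters shown were chosen after values had been seen. Alternatives were DESeq2 size factors, the DESeq2 1.42.0 Wald test, limma 3.58.1 voom with quality weights, no count filter, an offset for genomic length, only libraries with Y-linked reads, the table of mutant 10 in place of mutant 7, and leaving out each library. Depth was 10747169 to 13804734 counts per library.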

Additional observations from a re-analysis of the deposited data

How the results depend on the processing

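Over 13 alternative fits (the copied table of mutant 10, whose counts are those of mutant 7, was also run and is not counted), 9 of the 13 called collagen genes were called in each, 4 lost the call in at least 1 and 0 changed sign, while 9 uncalled members passed in at least 1. The count of falls was 5 to 9 over the alternatives that use another method or set of libraries and 4 to 8 without a single library. The count of rises was 5 to 12 (12 with limma-voom) and 5 to 10. The median log2 fold change of members, 0.29, was 0.23 with an offset for genomic length and 0.24 to 0.31 without a single library. Over all genes tested, the count of calls was 1549, against 3134 with limma-voom, 2703 with the length offset and 734 to 2347 without a single library. With an absolute log2 fold change over 1 required as well, 5 falls and 5 rises were left.

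Of the uncalled members 5 changed sign, in 5 of these fits. Without both libraries that lack Y-linked reads, the log2 fold change was 0.15 for Col8a1 and -0.084 for Col3a1. Without a single library it ran from -0.46 (without control 1) to 0.11 (without control 4) for Col8a1 and from -0.37 (mutant 7) to 0.029 (mutant 6) for Col4a6, with 0.012 without control 4. For Col3a1 the same range was -0.21 (control 2) to 0.39 (mutant 7), with -0.13 without mutant 6 and -0.082 without mutant 8. For Col1a2 it was -0.41 (mutant 8) to 0.088 (mutant 6), and for Col18a1 -0.058 (mutant 8) to 0.79 (control 2). These genes had at most 58 counts in a library, and their direction was not settled by these fits. Whether the low counts account for this was not tested. No paired analysis was possible because the controls are numbered 1 to 4 and the mutants 6, 7, 8 and 10, so no replicate number is shared. A lone library that stood apart was looked for in the 4 controls over 39 values with Dixon's criterion, and 0 did, where chance gives about 1 in 20.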

Other observations

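Collagen genes that share a trimer did not all move together. Within type VI, Col6a1 and Col6a2 rose by about the same factor (3.27 and 2.94 times), and the ratio of their levels overlapped between the groups. Within type IX, Col9a2 fell 4.34 times, while Col9a1 and Col9a3 did not pass and had log2 fold changes of 0.74 and 0.24. Within type V, Col5a1 rose 3.92 times and Col5a2 and Col5a3 did not pass, with log2 fold changes of 0.69 and 0.66. Whether these ratios hold in single cells was not tested.

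Col6a1, at 17.4 kb, and Col19a1, at 326 kb, change places as the collagen with the highest level in controls according to whether the counts are divided by unshared span or by exonic length. Counts from nuclei cover introns, and the share of intronic reads per gene is not analysed here. Spans also bear on what can be read at all: Col10a1 is listed at 0 in a table that holds no counts from shared spans, and 86.3% of the span of Col4a2 is unshared, against 91.5% to 100% for the other members.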
